A study of Rattus norvegicus with 14 samples.

Results

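Transcripts of 7 receptor genes through which platelets stick and answer ADP were followed in peripheral blood mononuclear cells (PBMC) of rats: Itga2b, Itgb3, Gp9, Gp5, Gp6, P2ry12 and P2ry1. They were chosen by name, as the probe sets that carry only that symbol in the annotation of the array. Of the 7 genes, 6 had such a probe set, out of 14217 genes on the array with one, and Gp6 had none and has no value here. P2ry12 had 2 probe sets and the other 5 genes 1 each, which makes 7 probe sets, and all 7 passed the filter on low signal. The filter kept 18515 probe sets with a signal above the median of the array on at least 2 of the 14 arrays. P2ry1 was above that median on 8 of 14 arrays and the other genes on all 14. The probe sets were 1380600_at for Itga2b, 1397317_at for Itgb3, 1390961_at for Gp9, 1370152_at for Gp5 and 1370606_at for P2ry1. For P2ry12 the probe set with the higher mean signal (1380822_at) stands for the gene unless the other is named.

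The rats were female Wistar rats, and each array held the PBMC of 1 sample, separated on a Ficoll gradient. MTXAP rats (3 arrays) had collagen-induced arthritis (CIA) and were sampled after 34 days of methotrexate injections with needle stimulation of the skin, called acupuncture in the sample records. AP rats (3 arrays) had CIA and 34 days of needle stimulation alone, and HAP rats (3 arrays) were healthy with the same 34 days of stimulation. RA rats (2 arrays) had CIA and NORA rats (3 arrays) were healthy, and both were sampled before any therapy. No group was sampled at 34 days without stimulation, so time and therapy cannot be told apart. The rats were killed at sampling, so no 2 arrays come from the same rat at different times. Since RA serves in several comparisons, and AP and NORA likewise, the comparisons are not independent of each other.

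Itga2b and Itgb3 encode the subunits of integrin alphaIIb-beta3, the fibrinogen receptor that links activated platelets to each other. Gp9 and Gp5 encode members of the glycoprotein Ib-IX-V complex, which catches von Willebrand factor under flow, and Gp6 encodes the collagen receptor. P2ry1 and P2ry12 encode the receptors for ADP released from dense granules: P2Y1 couples to Gq and calcium release, while P2Y12 couples to Gi, sustains aggregation and is the target of clopidogrel. In blood these transcripts are known mainly from platelets and their megakaryocyte precursors, and P2ry1 from further cell types. In such bulk samples fewer cells of a type and less RNA per cell cannot be told apart, and platelet numbers were not analysed here.

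Promoters are given for the 4 members that had a window among those used here: Itga2b, Gp9, Gp5 and P2ry1. Itgb3 and P2ry12 had no window. The signals of Itga2b, Gp9 and Gp5 moved together over the arrays, and P2ry1 had the lowest correlations with them. The windows are from RefSeq on GRCr8, with 250 bases before and 50 from the start of the gene, written 5′ to 3′ on the strand of the gene. They lie at chr10:87925784-87926083 on the minus strand for Itga2b, chr4:121792592-121792891 on the plus strand for Gp9, chr11:83948257-83948556 on the plus strand for Gp5 and chr2:147391411-147391710 on the plus strand for P2ry1. Capitals mark each match, on either strand, to AGATAA or AGATAG or TGATAA or TGATAG for the GATA family, to AGGAAG or CGGAAG for the ETS family and to TGTGGT for the RUNX family, transcription factors known from megakaryocytes.
Itga2b: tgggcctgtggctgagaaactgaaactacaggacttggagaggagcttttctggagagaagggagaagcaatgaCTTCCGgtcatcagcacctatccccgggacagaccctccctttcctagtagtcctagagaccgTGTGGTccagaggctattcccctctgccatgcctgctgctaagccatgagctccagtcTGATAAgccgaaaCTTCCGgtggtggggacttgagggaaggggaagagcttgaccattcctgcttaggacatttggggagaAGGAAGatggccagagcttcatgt
Gp9: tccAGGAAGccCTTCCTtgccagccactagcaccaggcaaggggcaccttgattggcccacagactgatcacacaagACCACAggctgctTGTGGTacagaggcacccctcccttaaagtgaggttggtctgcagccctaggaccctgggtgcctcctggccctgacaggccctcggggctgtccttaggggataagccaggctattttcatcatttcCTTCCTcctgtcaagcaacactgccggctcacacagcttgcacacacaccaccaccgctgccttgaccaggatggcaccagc
Gp5: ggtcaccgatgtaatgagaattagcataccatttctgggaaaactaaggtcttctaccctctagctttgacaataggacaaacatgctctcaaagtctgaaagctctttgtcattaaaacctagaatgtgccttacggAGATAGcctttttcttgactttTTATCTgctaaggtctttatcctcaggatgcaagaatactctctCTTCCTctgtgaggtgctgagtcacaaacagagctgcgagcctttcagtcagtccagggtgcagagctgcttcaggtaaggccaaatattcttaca
P2ry1: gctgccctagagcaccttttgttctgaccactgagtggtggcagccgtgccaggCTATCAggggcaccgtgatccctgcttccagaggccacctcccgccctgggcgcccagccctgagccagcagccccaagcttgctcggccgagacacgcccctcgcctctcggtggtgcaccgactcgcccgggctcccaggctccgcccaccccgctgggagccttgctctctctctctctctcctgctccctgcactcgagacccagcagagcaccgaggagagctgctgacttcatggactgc
The Itga2b window held 1 GATA, 3 ETS and 1 RUNX match, with TGATAA at -55 and CTTCCG at -42 when the first base of the gene is counted as 0. The Gp9 window held 3 ETS and 2 RUNX matches, and the Gp5 window 2 GATA matches and 1 ETS match. P2ry1 held 1 GATA match and none to ETS or RUNX, and no 2 matches overlapped in any of the 4 windows. Of 33469 promoter windows of this length, 30.3% held a GATA match, 45.5% an ETS match, 17.3% a RUNX match and 12.9% both GATA and ETS, as Itga2b and Gp5 did. The G and C bases made up 67.7% of the P2ry1 window, against 54.3% for Itga2b, 59.3% for Gp9 and 43.0% for Gp5, with a median of 51.7% over all windows. These letters are a description of the sequence and show no binding.

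Before the values of the members, 2 arrays stand apart. NORA replicate 3 had the lowest mean correlation with the other arrays (0.860) and MTXAP replicate 3 the next lowest (0.887), while the other 12 ranged from 0.896 to 0.910. The actin 3′ to 5′ signal ratio, a sign of RNA integrity, was highest on MTXAP replicate 3 (5.01) and lowest on NORA replicate 3 (1.97). It also differed between groups, at 3.13 to 5.01 in MTXAP, 2.44 to 2.69 in AP, 3.35 to 4.36 in HAP, 2.77 to 2.83 in RA and 1.97 to 3.01 in NORA. The mean log2 level of 16 measured erythroid marker genes, each centred over the 14 arrays, was -3.67 on MTXAP replicate 3 and 1.96 on NORA replicate 3, and between -0.87 and 0.97 on the others. T cell markers (13 of 13 measured), B cell markers (7 of 7) and monocyte markers (12 of 13) passed the filter, as did neutrophil markers (8 of 8), NK cell markers (10 of 10) and erythroid markers (15 of 16). In every comparison, limma called 0 of 18515 probe sets (0%) at a Benjamini-Hochberg adjusted p of 0.05, so no member passed that test in any of the 8 comparisons. At an unadjusted p of 0.05 between 731 (AP minus NORA) and 2746 (MTXAP minus AP) of the 18515 were counted.

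The values of each member are log2 MAS5 signals, in which 1 unit is a doubling, with replicates in the order 1 to 3. Itga2b, the alphaIIb subunit, read 14.75, 14.80 and 13.07 on MTXAP arrays, 14.11, 14.55 and 14.72 on AP, 14.00, 14.06 and 14.17 on HAP, 13.38 and 13.72 on RA and 13.57, 14.92 and 15.51 on NORA. The lowest array was MTXAP replicate 3 and the highest NORA replicate 3, a 5.42-fold span, and the AP arrays all lay above both RA arrays. Its partner Itgb3 read 14.93, 15.0004 and 13.74 on MTXAP, 14.57, 14.78 and 14.90 on AP, 14.25, 14.34 and 14.63 on HAP, 13.60 and 14.00 on RA and 14.09, 15.18 and 15.87 on NORA. Both RA arrays lay below all 3 NORA arrays and all 3 AP arrays, and MTXAP replicate 3 sat among the RA values.

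Gp9, which encodes glycoprotein IX, read 13.04, 12.89 and 10.78 on MTXAP, 12.16, 12.46 and 13.27 on AP, 11.53, 11.15 and 11.80 on HAP, 10.43 and 11.43 on RA and 11.44, 13.24 and 13.76 on NORA. Both RA arrays were below all 3 NORA arrays, but only just, at 11.43 on RA replicate 2 and 11.44 on NORA replicate 1. Gp5, which encodes the thrombin-cleaved glycoprotein V, read 10.88, 10.99 and 8.18 on MTXAP, 10.10, 10.27 and 11.35 on AP, 9.32, 9.34 and 9.79 on HAP, 8.64 and 9.27 on RA and 9.04, 11.87 and 11.48 on NORA. Its 12.97-fold span between MTXAP replicate 3 and NORA replicate 2 was the widest of the 6 genes, and NORA replicate 1 fell between the RA arrays.

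P2ry12 read 11.16, 11.92 and 11.08 on MTXAP, 11.05, 11.49 and 12.43 on AP, 10.91, 10.78 and 11.11 on HAP, 9.88 and 10.08 on RA and 9.88, 12.68 and 12.30 on NORA. Here MTXAP replicate 3 was the lowest of its group by little, and all MTXAP and AP arrays were above both RA arrays. The other P2ry12 probe set (1368728_at) read 10.56, 10.92 and 9.32 on MTXAP, 10.34, 10.77 and 11.25 on AP, 9.80, 9.74 and 10.22 on HAP, 9.11 and 9.58 on RA and 9.55, 11.03 and 12.16 on NORA. On that probe set MTXAP replicate 3 lay between the RA arrays, so the 2 probe sets disagreed about this array while their r over the 14 arrays was 0.87 (rho 0.91, a description). P2ry1 read 6.49, 7.25 and 5.30 on MTXAP, 7.58, 7.83 and 8.46 on AP, 6.42, 7.001 and 6.76 on HAP, 7.04 and 6.64 on RA and 6.58, 8.41 and 7.39 on NORA. Every AP array of P2ry1 was above every MTXAP, HAP and RA array, and the lowest value of all was MTXAP replicate 3.

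**Figure D1:**
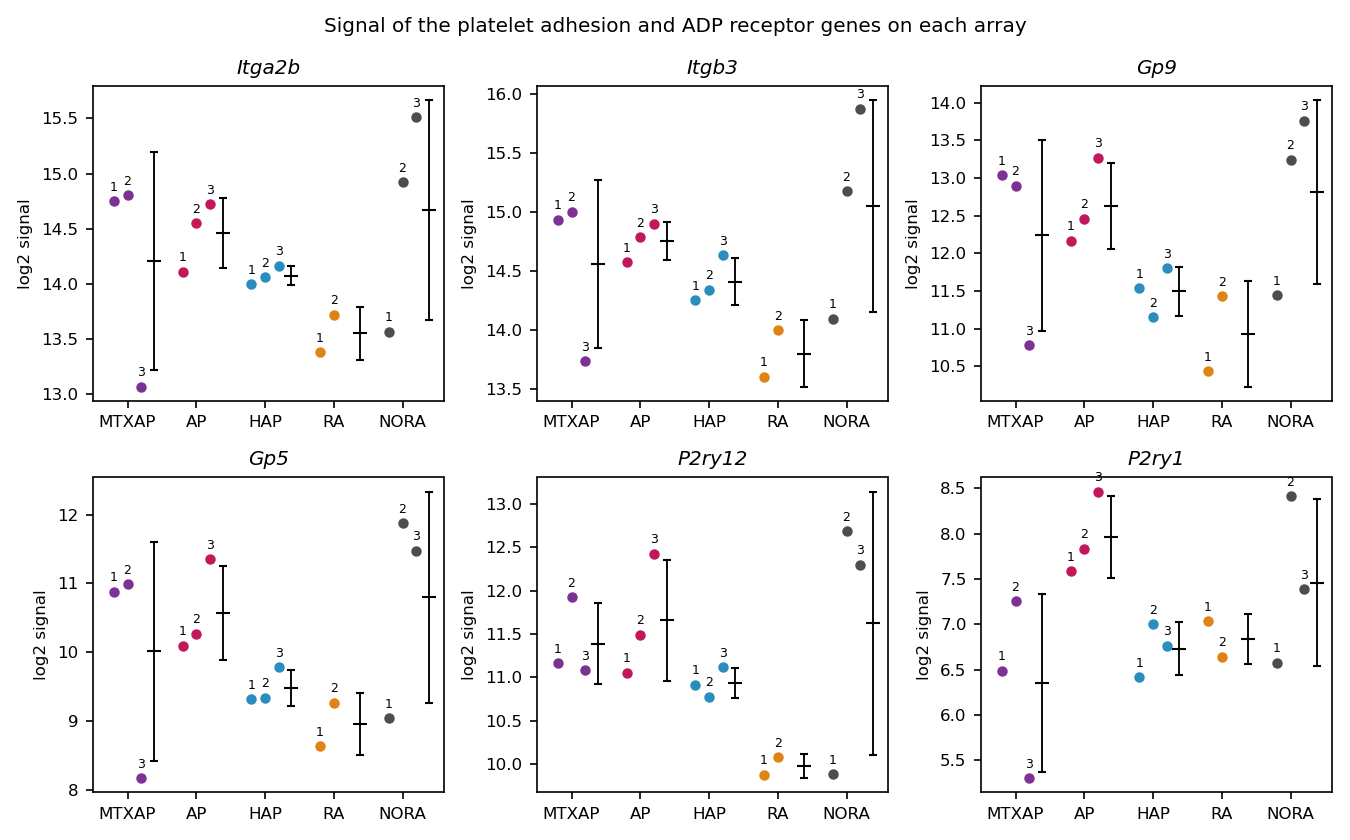
Log2 signal of 6 receptor genes on the 14 arrays, by group (x axis, MTXAP to NORA); points are arrays numbered by replicate, and the black bar to the right of each group is its mean with its SD. NORA replicate 1 lies below NORA replicates 2 and 3 in every gene, and MTXAP replicate 3 is the lowest MTXAP array in every gene, at 13.07 beside 14.75 and 14.80 in Itga2b and at 11.08 beside 11.16 and 11.92 in P2ry12.

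The group means of Itga2b, Itgb3, Gp9 and Gp5 had the same order, lowest in RA, then HAP, then MTXAP, then AP, and highest in NORA. For P2ry12 it was RA, HAP, MTXAP, NORA and AP, with NORA and AP 0.03 apart, and for P2ry1 it was MTXAP, HAP, RA, NORA and AP. Of the neighbours in these orders, AP with MTXAP, AP with NORA and, for P2ry1, RA with NORA were compared by the fit. No gene passed the adjusted test in any of these. HAP with RA, MTXAP with HAP and, for P2ry12, MTXAP with NORA were not tested. The spread itself was uneven: Gp5 averaged 9.48 ± 0.26 in HAP but 10.01 ± 1.59 in MTXAP and 10.80 ± 1.53 in NORA (log2 signal, SD, n = 3 each).

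Arthritis before therapy was read from RA against NORA. All 6 members were lower in RA, with log2 differences of -1.11 ± 0.57 for Itga2b, -1.25 ± 0.47 for Itgb3, -1.88 ± 0.75 for Gp9, -1.84 ± 0.90 for Gp5, -1.65 ± 0.68 for P2ry12 and -0.62 ± 0.57 for P2ry1 (SE, 2 RA and 3 NORA arrays). The median of the 6 was -1.45, beside 0.07 over all probe sets tested, and the adjusted p from limma lay between 0.58 and 0.68. At the thresholds of the study, an unadjusted p of 0.05 and a fold of 2, Itgb3, Gp9 and P2ry12 were lower, 3 of 6 beside 3.83% of all probe sets. That count was 0 without NORA replicate 2, NORA replicate 3 or RA replicate 1. It was 5 without NORA replicate 1, with 1284 of 18515 probe sets lower in all, and 5 without MTXAP replicate 3, with 829. Itgb3 and Gp9 had every RA array below every NORA array, 2 of 6 beside 9.33%. The size of the difference turned on the NORA arrays, since NORA replicate 1 lay inside or next to the range of the RA arrays in all 6 genes. Without NORA replicate 1 the median was -2.12 and P2ry12 passed the adjusted test (-2.52 ± 0.42, limma adjusted p = 0.041, against 0.031 to 1.0 over all alternatives tried), with 168 probe sets in all. Without NORA replicate 3 the median was -1.07 and no member passed. With a weight estimated for each array, 4 members passed, as did 765 probe sets in all. The erythroid markers differed the same way, 15 of 15 tested being lower in RA with a median of -1.25, while 7 of 8 neutrophil markers were higher by a median of 0.80 and 13 of 13 T cell markers by 0.31. Their part in the difference was not tested.

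**Figure D2:**
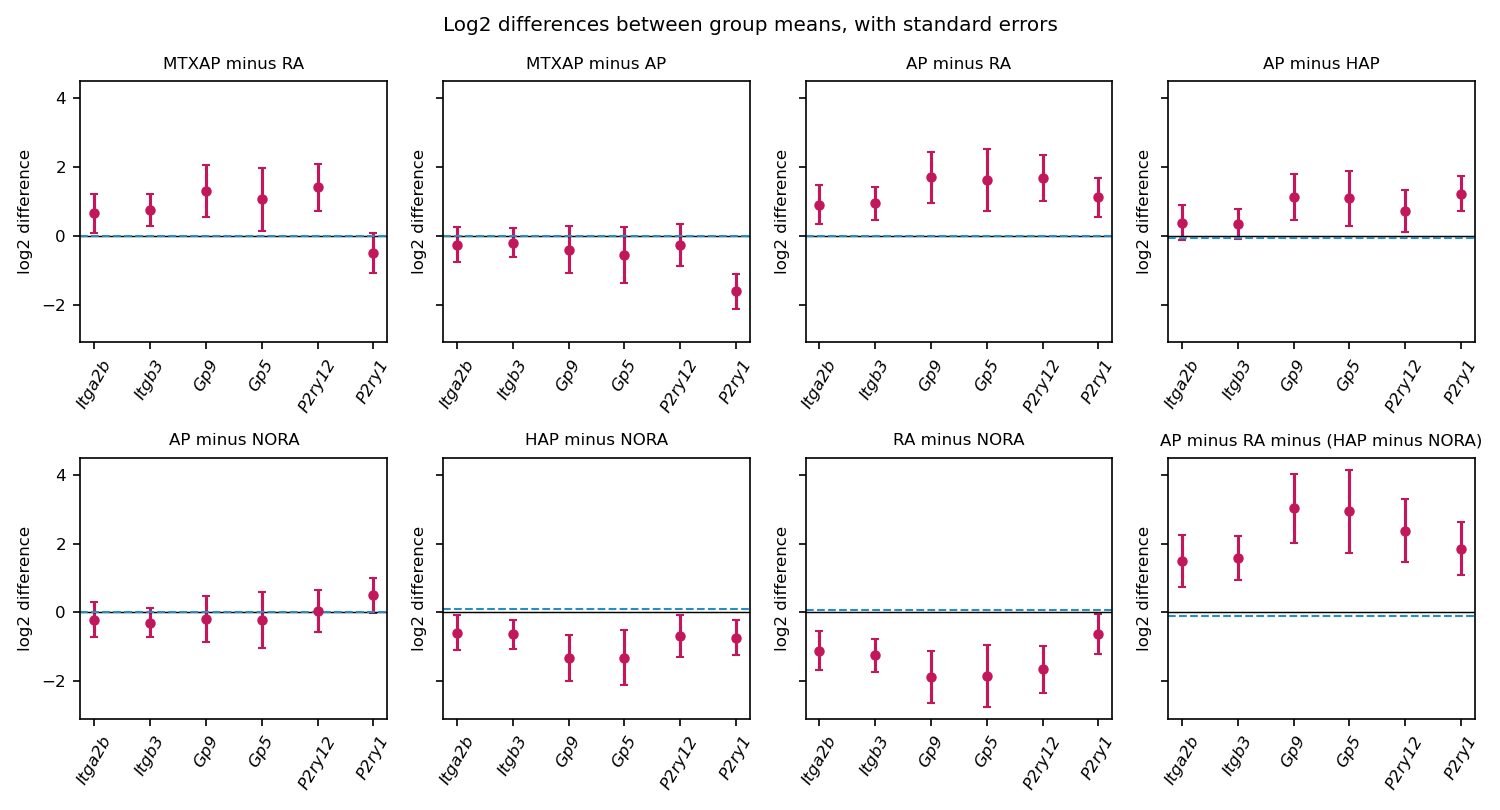
Log2 differences between group means (y axis) for the 6 genes in 8 comparisons, with bars of 1 SE from the limma fit; the dashed line is the median over all 18515 probe sets tested. In RA minus NORA all 6 points are below 0, in AP minus RA all 6 are above 0, and P2ry1 is the lowest point, at -1.61, in MTXAP minus AP.

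Arthritic rats after 34 days of needle stimulation were set against arthritic rats before therapy. All 6 members were higher in AP than in RA, by 0.91 ± 0.57 for Itga2b, 0.95 ± 0.47 for Itgb3, 1.70 ± 0.75 for Gp9, 1.62 ± 0.90 for Gp5, 1.68 ± 0.68 for P2ry12 and 1.12 ± 0.57 for P2ry1 (log2, SE, 3 AP and 2 RA arrays). Every AP array was above every RA array in 6 of 6 members, beside 16.2% of all probe sets. Gp9 and P2ry12 were past the thresholds of the study, 2 of 6 beside 2.57%, and the limma adjusted p was 0.62 to 0.63. That count was 0 without RA replicate 1 or AP replicate 3, and 1 without RA replicate 2, AP replicate 2 or any 1 HAP array. It was 3 without NORA replicate 1, with 654 of 18515 probe sets higher in all, and 4 without MTXAP replicate 3, with 575. HAP, NORA and MTXAP arrays enter this comparison only through the shared spread. Fitted to the AP and RA arrays only, the count was 4, with 723 probe sets higher in all. The median of 1.37, beside -0.01 over all probe sets, stayed between 1.05 and 1.58 when any 1 array was left out. The erythroid markers (14 of 15, median 0.71) and monocyte markers (10 of 12, median 0.67) were higher as well. So were B cell markers (6 of 7, median 0.54) and NK cell markers (8 of 10, median 0.41), while 10 of 13 T cell markers were lower (median -0.41). The actin ratio was lower on every AP array than on any RA array. The part of these in the difference was not tested.

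AP was also set against healthy rats before therapy. The median of the members was -0.19 in AP minus NORA, with 4 members lower and 2 higher, and leaving out 1 array moved it between -0.80 and 0.25. P2ry12 differed by 0.03 ± 0.61 and Gp9 by -0.18 ± 0.67 (log2, SE, 3 arrays each), errors wide enough to hold a doubling either way. Monocyte markers (11 of 12, median 0.82), neutrophil markers (8 of 8, 0.58), NK cell markers (10 of 10, 0.55) and B cell markers (7 of 7, 0.32) were higher in AP. Erythroid markers (13 of 15, median -0.46) and 7 of 13 T cell markers (-0.01) were lower. Their part was not tested.

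Healthy rats with stimulation were set against healthy rats before therapy. All 6 members were lower in HAP than in NORA, from -0.59 ± 0.51 for Itga2b to -1.32 ± 0.67 for Gp9, with a median of -0.71 beside 0.09 over all probe sets (log2, SE, 3 arrays each). None had groups without overlap, because NORA replicate 1 lay below or among the HAP arrays, and none was past the thresholds of the study (limma adjusted p 0.75 to 0.77). Without NORA replicate 1 the median was -1.36 and 6 of 6 were past them, with 877 of 18515 probe sets lower in all, and with array weights it was -1.43 and 4 of 6, with 719 in all. The 3 HAP arrays were tight, with SDs between 0.09 and 0.33 over the 6 genes, while NORA had SDs between 0.90 and 1.53. Erythroid markers were lower in HAP too (14 of 15, median -0.75), as were NK cell markers (9 of 10, median -0.24), while neutrophil markers (7 of 8, median 0.90) and monocyte markers (12 of 12, median 0.39) were higher. The actin ratio was also higher on every HAP array than on any NORA array, and the part of these in the difference was not tested.

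The change over therapy in arthritic rats was set against that in healthy rats as (AP minus RA) minus (HAP minus NORA). It was positive for all 6 members, at 1.498 ± 0.763 for Itga2b, 1.59 ± 0.64 for Itgb3, 3.02 ± 1.00 for Gp9, 2.93 ± 1.21 for Gp5, 2.37 ± 0.91 for P2ry12 and 1.85 ± 0.77 for P2ry1 (log2, SE). The median was 2.11, beside -0.11 over all probe sets. All but Itga2b were past the thresholds of the study, 5 of 6 beside 5.38%, while the limma adjusted p was 0.36 to 0.41. Without NORA replicate 2, RA replicate 1 or AP replicate 3 that count was 1, and without NORA replicate 3 or HAP replicate 1 it was 2. The calls depended on how arrays were weighted. With weights estimated by limma for each array, where NORA replicates 1 and 3 counted 0.32 and 0.29 and NORA replicate 2 counted 2.82, 6 of 6 members passed the adjusted test, as did 1651 probe sets in all. Without NORA replicate 1, Itgb3, Gp9 and P2ry12 passed, with 980 probe sets in all. With NORA replicate 3 and MTXAP replicate 3 left out, 0 members passed and 4 were past the thresholds of the study, with 768 of 18515 probe sets higher in all. Erythroid markers were higher (14 of 15, median 1.46) and neutrophil markers lower (7 of 8, median -0.98) in the same contrast. The actin ratio was lower on every AP array than on any RA array, and higher on every HAP array than on any NORA array. The part of these was not tested.

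At 34 days the arthritic and healthy stimulated rats were compared directly. All 6 members were higher in AP than in HAP, with a median of 0.91 beside -0.05, and differences of 1.14 ± 0.67 for Gp9, 1.09 ± 0.81 for Gp5 and 1.23 ± 0.51 for P2ry1 (log2, SE, 3 arrays each). In these 3 genes every AP array was above every HAP array, 3 of 6 beside 7.08%. P2ry1 alone was past the thresholds of the study, 1 of 6 beside 0.81% (limma adjusted p = 0.81, and 0.26 to 1.0 over the alternatives). It was no longer past them without HAP replicate 1 or 3 or AP replicate 2 or 3, or with 50 added to every signal. On HAP replicates 1 to 3 its signals were 85.6, 128 and 109, beside array medians of 126, 127 and 124. The smaller differences were those of the integrin subunits, 0.38 ± 0.51 for Itga2b and 0.34 ± 0.42 for Itgb3. Of 10 NK cell markers, 9 were also higher in AP, with a median of 0.76. So were 13 of 15 erythroid markers (median 0.26) and 8 of 12 monocyte markers (median 0.29). Lower in AP were 8 of 13 T cell markers (median -0.03), 5 of 7 B cell markers (-0.02) and 5 of 8 neutrophil markers (-0.10). The actin ratio was lower on every AP array than on any HAP array. Their part was not tested.

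Methotrexate with stimulation was set against arthritis before therapy and against stimulation alone. In MTXAP minus RA, 5 members were higher, up to 1.41 ± 0.68 for P2ry12 and 1.31 ± 0.75 for Gp9, and P2ry1 was lower at -0.49 ± 0.57 (log2, SE, 3 MTXAP and 2 RA arrays). The median was 0.91 beside -0.02, and P2ry12 alone had all MTXAP arrays above all RA arrays, 1 of 6 beside 9.27%, from which nothing is read about the members. No member was past the thresholds of the study (limma adjusted p 0.95 to 1.0). Without MTXAP replicate 3 the median was 1.39, 4 of 6 members were past those thresholds, with 617 probe sets higher in all, and P2ry1 stood at 0.03. T cell markers (13 of 13, median -0.54), NK cell markers (8 of 10, median -0.49) and neutrophil markers (6 of 8, median -0.53) were lower in MTXAP. So were monocyte markers (8 of 12, median -0.29) and erythroid markers (9 of 15, median -0.23), while 4 of 7 B cell markers were higher (median 0.19). The actin ratio was higher on every MTXAP array than on any RA array. The part of these in the differences was not tested.

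In MTXAP minus AP the members other than P2ry1 had differences of -0.25 ± 0.51 for Itga2b, -0.20 ± 0.42 for Itgb3, -0.39 ± 0.67 for Gp9, -0.56 ± 0.81 for Gp5 and -0.27 ± 0.61 for P2ry12 (log2, SE, 3 arrays each). The median over the 6 was -0.33 beside -0.01, and without MTXAP replicate 3 it turned to 0.26. P2ry1 was lower by a larger amount, -1.61 ± 0.51, with all MTXAP arrays below all AP arrays. On MTXAP replicates 1 and 3 P2ry1 had signals of 89.8 and 39.5, below the array medians of 125 and 107, and with 50 added to every signal the log2 difference was -1.14 ± 0.36. It alone was past the thresholds of the study, 1 of 6 beside 2.35%, and 1 of 6 without overlap beside 10.7% (limma adjusted p = 0.22, and 0.12 to 0.55 over the alternatives). With both arrays that stand apart left out, no member was past those thresholds. The P2ry1 difference was negative under all 21 alternatives, between -2.06 and -1.09, the smallest without MTXAP replicate 3. Erythroid markers (12 of 15 tested lower, median -1.02), monocyte markers (10 of 12, median -0.82) and NK cell markers (10 of 10 lower, median -0.86) were lower in MTXAP too, and the actin ratio was higher on every MTXAP array than on any AP array. Their part in the P2ry1 difference was not tested.

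P2ry1 also stood off from the other members array by array. Its departure, the centred log2 signal of the gene minus the mean of the other 5, was -1.12, -0.52 and -0.72 on MTXAP arrays, 0.53, 0.47 and 0.47 on AP, -0.24, 0.41 and -0.19 on HAP, 1.19 and 0.28 on RA and 0.32, 0.18 and -1.05 on NORA. All 3 MTXAP arrays were negative and all 3 AP arrays positive. This pattern was picked out after the values were seen and was not tested. The MTXAP departures of each of the other 5 genes had both signs. Groups with a single sign were found in those genes too. On HAP arrays each gene but P2ry1 kept the same sign, and Itga2b and Itgb3 were negative on all AP arrays.

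**Figure D3:**
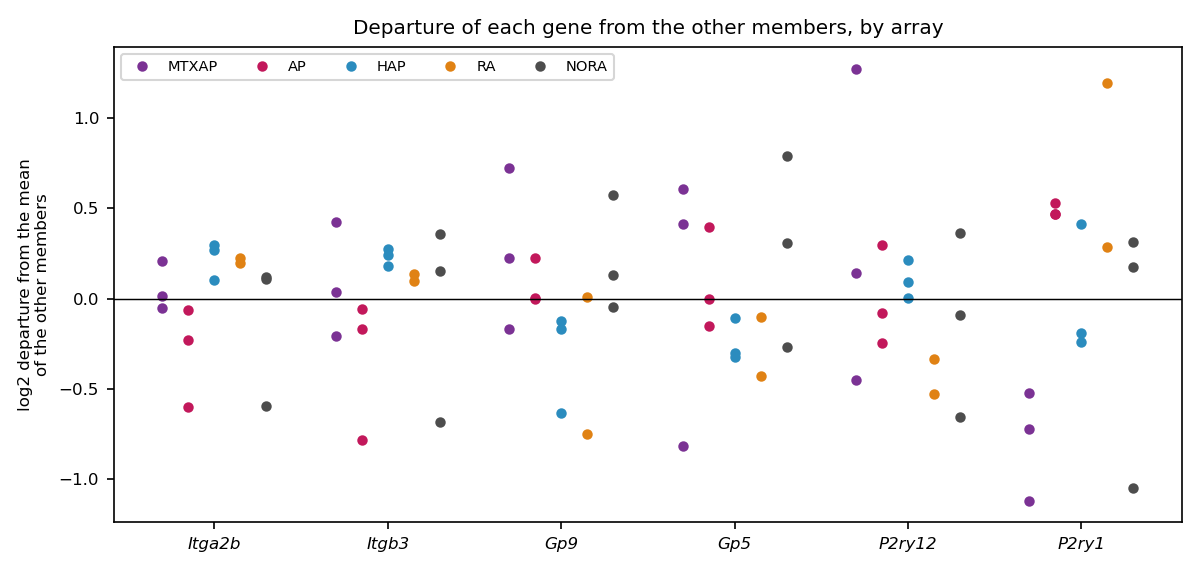
Departure of each gene from the mean of the other 5 members (y axis, log2), 1 point an array and 1 column a group, in the order MTXAP, AP, HAP, RA and NORA. P2ry1 is the gene with all MTXAP points below 0 (-1.12 to -0.52) and all AP points above 0 (0.47 to 0.53). Groups with a single sign also occur in the other genes, each of which keeps the same sign on all HAP arrays.

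Over the 14 arrays the members varied together. All 15 pairs of the 6 genes had positive correlations, with r from 0.59 to 0.98 and rho from 0.56 to 0.99, and all 15 had a Benjamini-Hochberg adjusted permutation p of 0.05 or less (100000 resamples, 2-sided, highest adjusted p 0.028 for r and 0.038 for rho; 1e-05 is the smallest p these can give). The integrin subunits Itga2b and Itgb3 had r = 0.98 (rho = 0.99, adjusted permutation p = 3e-05 and 5e-05), and r was 0.97 without the 2 arrays farthest from the median of Itga2b. Gp9 and Gp5, of the same complex, had r = 0.97 (rho = 0.95) and 0.97 without such arrays. The ADP receptors P2ry12 and P2ry1 were less alike, at r = 0.61 (rho = 0.58, adjusted permutation p = 0.021 and 0.033), and with the 2 arrays farthest from the median of P2ry12 left out r was 0.31. With the 2 arrays that stand apart left out it was 0.77, and over all 14 after group means were subtracted it was 0.75. The 10 pairs without P2ry1 had r of 0.81 or more, and the 5 pairs with it had r of 0.76 or less. The permutations moved arrays across groups, so their p-values also take in differences between groups that the genes share. The members were also chosen with earlier results of these data known. After each group mean was subtracted, r over the 15 pairs was still 0.66 to 0.98 (a description), so the genes varied together between arrays of the same group.

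The mean of the 6 centred log2 signals gives a member score for each array: 0.34, 0.61 and -1.18 on MTXAP, 0.06, 0.36 and 0.99 on AP, -0.46, -0.42 and -0.16 on HAP, -1.04 and -0.68 on RA and -0.77, 1.18 and 1.18 on NORA. NORA thus held both the highest arrays and one that ranked 3 from the bottom. Among 8906 genes with a mean log2 signal above the median, the 10 most like this score over the 14 arrays were Tal1 (r = 0.996), St3gal2 (0.991), Pam (0.987), Tspan9 (0.986), Stk4 (0.982), Cd9 (0.981), Stom (0.981), Chchd3 (0.979), Adgra2 (0.979) and Alox12 (0.979). Of the 8906, 278 had an r over 0.9 and the median r was -0.12, so many genes shared the array-to-array pattern of the score. Each member enters this score itself, and P2ry1 followed the other members less closely, with r of 0.76 or less to each.

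Other platelet genes were read from lists by role. Of 16 other adhesion receptors, 15 were lower in RA than in NORA and 14 were higher in AP than in RA, with medians of -1.25 and 1.09. Jam3, a junctional adhesion molecule, differed by -2.77 ± 0.65 in RA minus NORA, by -2.83 ± 0.58 in HAP minus NORA and by 2.55 ± 0.65 in MTXAP minus RA (log2, SE), a larger difference than any member in each. Esam and Itgav, a junction protein and the alphaV integrin subunit, were 1.35 ± 0.54 and 1.18 ± 0.47 higher in AP than in RA. Of 6 tested agonist receptors out of 9 measured, 5 were lower in RA than in NORA (median -0.65) and 6 higher in AP than in RA (median 1.03). Those past the thresholds of the study were F2rl2, a thrombin receptor, at -2.26 ± 0.81 in RA minus NORA, and P2rx1, the ATP-gated channel, at -1.70 ± 0.72 there and 1.60 ± 0.72 in AP minus RA. No gene of these lists had a limma adjusted p of 0.05 or less.

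Below the receptors the differences were smaller. Of 30 signalling genes, 22 were lower in RA than in NORA and 21 higher in AP than in RA, with medians of -0.39 and 0.36. Rgs18, a regulator of G protein signals in platelets, was -1.69 ± 0.53 in RA minus NORA, -1.21 ± 0.47 in HAP minus NORA and 1.26 ± 0.53 in AP minus RA, and the kinase Src was -1.37 ± 0.29 in RA minus NORA (log2, SE). Granule, cytoskeleton and enzyme genes had medians closest to those of the members, -1.43 in RA minus NORA (16 of 16 lower) and 1.36 in AP minus RA (16 of 16 higher). Ppbp, a granule chemokine, was -2.01 ± 0.63 and 1.59 ± 0.63 in these comparisons, and Ptgs1, which starts thromboxane synthesis, was -1.71 ± 0.64 and 1.58 ± 0.64. The megakaryocyte transcription factors had medians of -1.01 (8 of 10 lower) and 0.80 (9 of 10 higher), with Gfi1b at -2.26 ± 0.67 and 1.68 ± 0.67. Among ligands and ADP breakdown, 4 of 11 measured genes passed the filter, 2 higher and 2 lower in MTXAP than in AP (median 0.14). Entpd1, the ectonucleotidase that removes ADP, was 1.53 ± 0.60 higher there (limma adjusted p = 0.28). It was 1 of 4 higher at the thresholds of the study, beside 398 of 18515 probe sets.

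**Figure D4:**
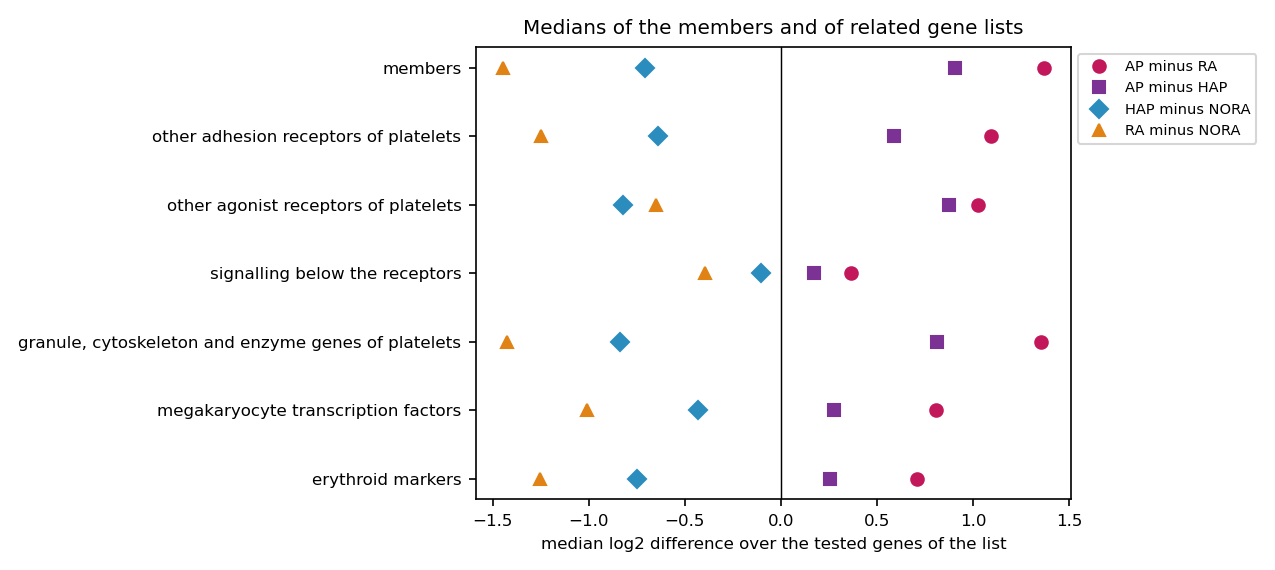
Median log2 difference (x axis) over the tested genes of the members and of 6 related lists (rows) in 4 comparisons (symbols); ligands and ADP breakdown are not drawn. The members and the granule, cytoskeleton and enzyme genes lie farthest from 0 in AP minus RA, at 1.37 and 1.36, and of the lists drawn the signalling genes lie nearest, at 0.36.

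The score of each list was set beside the member score over the 14 arrays, as a description. Granule, cytoskeleton and enzyme genes had r = 0.97 (rho 0.98), other adhesion receptors 0.94 (0.92), megakaryocyte transcription factors 0.92 (0.97), signalling genes 0.91 (0.92) and other agonist receptors 0.82 (0.85). Ligands and ADP breakdown had 0.05 (0.12). Erythroid markers had 0.62 (0.46), which was 0.36 without the 2 arrays farthest from their median. The other cell types were at -0.32 (-0.39) for T cells, -0.35 (-0.35) for B cells, 0.14 (0.21) for monocytes, 0.13 (0.27) for neutrophils and 0.41 (0.41) for NK cells. Without the 2 arrays farthest from the median of each list these became -0.68 for T cells, -0.26 for B cells, 0.15 for monocytes, 0.64 for neutrophils and 0.28 for NK cells. These scores share arrays, scaling and, through the mononuclear fraction, cells, and their part in the group differences was not tested.

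**Figure D5:**
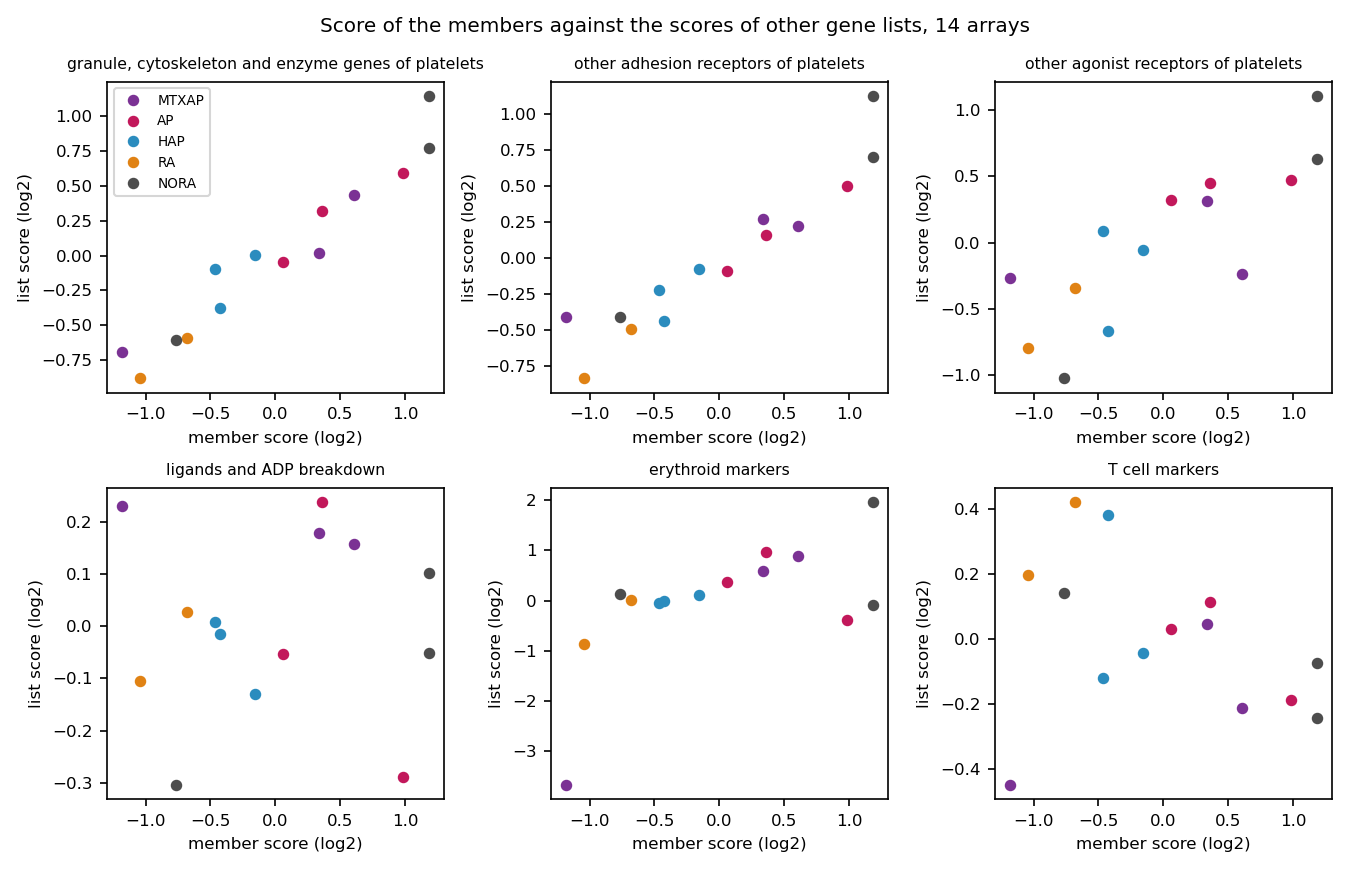
Mean centred log2 signal of 6 gene lists (y axis) against that of the members (x axis), 1 point an array, coloured by group. The granule list follows the members (r = 0.97), the ligand list has r = 0.05, and in the erythroid panel MTXAP replicate 3 lies alone at -3.67.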

How the data were processed

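Intensities were deposited by the authors as linear MAS5 signals, 1 per probe set of the Affymetrix Rat Genome 230 2.0 array, computed from the scanner files with the R package affy (version not given in the sources used here). On each of the 14 arrays the mean after trimming 2% at each end was 500, which is how the arrays were put on 1 scale. MAS5 keeps array differences in the distribution that quantile normalization would remove, and low signals vary more on the log2 scale. Control probe sets (57 of 31099) were left out, as were probe sets under the filter, which left 18515. Signals were taken to log2 with no pseudocount and a linear model of limma (version 3.58.1, under R 4.3.3) gave each of the 5 groups its own mean, all 14 arrays sharing 1 spread, and moderated tests with Benjamini-Hochberg adjustment over all 18515. The fit was tested on simulated data with known changes. For its calls these were larger than any member difference here, with errors independent between probe sets, so calls of smaller differences were not tested. The thresholds of the study were an unadjusted p of 0.05 and a fold of 2. The study also removed probe sets that MAS5 called absent on too many samples, before and after its tests. That step was not applied here, so genes with low signals, such as P2ry1, may not have stayed in its lists.

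Genes were named from the annotation of the platform: 20826 probe sets carry 1 symbol, 436 several and 9780 none. Groups follow the sample titles, and reading them as the treatment codes of the study was done here. The records do not say that each array is a separate rat beyond their replicate numbers, so p-values measure the spread between these samples, which may be technical in part, and array data have no read depth: the number of arrays limits the precision. Same-numbered arrays of different groups did not deviate together (mean r 0.03 over 26 pairs, against -0.01 over 52 other pairs), so numbers pair nothing. All members were named with each array, then the 10 genes most like the member score, and from each platelet list up to 3 genes a comparison past the thresholds of the study, by p. The members and lists were chosen with earlier results of these data known. Permutations used Python 3 with numpy and scipy. Promoters are those of RefSeq. Alternatives were quantile normalization, log2(signal + 50), no filter, array weights, no moderation, the thresholds of the study, only the groups compared, a replicate block, all probe sets of a gene, both arrays that stand apart left out, and each array left out in turn.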

Additional observations from a re-analysis of the deposited data

How the results depend on the processing

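Each of 48 member differences was refitted under 21 alternatives: of 1008 refits, 963 kept direction and side of the adjusted threshold, 31 turned direction and 14 passed the threshold. The cause was not tested. Members called at an adjusted p of 0.05 were 0 in the 8 comparisons, and with array weights 4 in RA minus NORA and 6 in (AP minus RA) minus (HAP minus NORA). Leaving out 1 array gave 0 to 1 and 0 to 3 in these, each time the highest without NORA replicate 1. Without moderation 0 members were called in any comparison. The thresholds of the study gave 3 in RA minus NORA, 2 in AP minus RA and 1 in MTXAP minus AP. They gave 1 in AP minus HAP and 5 in the difference of differences. All but that of MTXAP minus AP moved by over 1.5 times when some single arrays were left out. That of MTXAP minus AP was 0 with both arrays that stand apart left out. With only the groups compared, these thresholds gave 1 in RA minus NORA, beside 454 of 18515 probe sets lower in all. They gave 4 in AP minus RA, beside 723 higher, and 3 in AP minus HAP, beside 239 higher. MTXAP minus RA had 1, beside 331 higher, and MTXAP minus AP had 1, beside 403 lower. The difference of differences had 6, beside 1070 higher. The medians of the members moved by less than the SD of their score within groups (0.74) under each alternative, but with both arrays that stand apart left out that of MTXAP minus AP turned to 0.26 and that of AP minus NORA to 0.25.

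Differences that turned sign were small ones. In MTXAP minus AP, array weights gave 0.0073 for Itga2b, 0.030 for Gp9 and 0.0012 for Gp5. With NORA replicate 3 and MTXAP replicate 3 left out, Itga2b was 0.32, Itgb3 0.21, Gp9 0.33 and Gp5 0.36 there, and P2ry1 0.033 in MTXAP minus RA. In AP minus NORA the same omission gave 0.22 for Itga2b, 0.12 for Itgb3, 0.29 for Gp9 and 0.11 for Gp5. Array weights gave -0.81 for P2ry12 and -0.25 for P2ry1 in AP minus NORA, and quantile normalization 0.017 for Itga2b. With 1 array left out, MTXAP minus AP ran from -0.55 to 0.32 for Itga2b, -0.42 to 0.21 for Itgb3, -0.79 to 0.33 for Gp9, -1.04 to 0.36 for Gp5 and -0.57 to 0.12 for P2ry12. AP minus NORA ran from -0.76 to 0.22 for Itga2b, -0.77 to 0.12 for Itgb3, -0.87 to 0.29 for Gp9, -1.10 to 0.31 for Gp5, -0.83 to 0.57 for P2ry12 and 0.06 to 0.98 for P2ry1, and P2ry1 in MTXAP minus RA from -0.94 to 0.033.

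With a replicate block, 0 members were called in each comparison, and the median was -1.34 in RA minus NORA and 1.35 in AP minus RA. The numbers only name arrays. Of the 15 pairs, 15 passed by r and 12 by rho under quantile normalization, and 12 by r and 10 by rho with both arrays that stand apart left out. With 2 or 3 arrays a group, the standard errors of the member differences between 2 groups were 0.42 to 0.90 on the log2 scale, which limits what could be told apart.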
